A study of Homo sapiens with 6 samples.

Results

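Metallothioneins are small cysteine-rich proteins that bind zinc and copper, and together with membrane transporters they set the level of free zinc in a cell. This report describes 10 genes of that system in T24 cells: MT1E, MT1F, MT1G, MT1M, MT1X and MT2A, which encode metallothioneins, MTF1, which encodes the zinc-sensing transcription factor, SLC30A1, which encodes the zinc exporter ZnT1, and SLC39A10 and SLC39A14, which encode the zinc importers ZIP10 and ZIP14. They were taken by gene symbol from a table of 37871 genes. RNA-seq counts were available for 3 libraries of vehicle-treated cells and 3 libraries of cells given lipopolysaccharide (LPS) plus nigericin, with 66180407 to 89152224 gene counts per library. T24 is an established human bladder carcinoma line, LPS, from the outer membrane of Gram-negative bacteria, is the ligand of TLR4, and nigericin is a potassium ionophore used to trigger the NLRP3 inflammasome. The sources used here give neither dose nor duration nor whether the libraries came from separate cultures. The p-values therefore reflect only how far these libraries spread, which may be technical. With no group given either agent alone, the effects of LPS and nigericin cannot be told apart.

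Zinc entering the cytosol is bound by metallothioneins, moved out of the cell by SLC30 exporters, or taken into or released from vesicles. When free zinc rises, MTF1 binds metal response elements in promoters and raises transcription of the metallothionein genes and of SLC30A1. SLC39 importers bring zinc into the cytosol from outside the cell or from organelles, and ZIP14 also carries iron and manganese and is known as a transporter induced during the acute phase response to inflammation.

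The promoters of MT2A, MT1X and SLC30A1 are shown first because the metal response element is the sequence through which MTF1 acts on these genes. Its core was searched as TGCACNC or TGCGCNC on both strands, from 250 bases before to 50 bases after the annotated start, and the cores are in capitals. A core on the opposite strand therefore reads as its reverse complement. The windows are chr16:56608334-56608633 (plus strand) for MT2A, chr16:56682220-56682519 (plus strand) for MT1X and chr1:211579112-211579411 (minus strand) for SLC30A1, all RefSeq on GRCh38.p14 and written 5′ to 3′.
MT2A: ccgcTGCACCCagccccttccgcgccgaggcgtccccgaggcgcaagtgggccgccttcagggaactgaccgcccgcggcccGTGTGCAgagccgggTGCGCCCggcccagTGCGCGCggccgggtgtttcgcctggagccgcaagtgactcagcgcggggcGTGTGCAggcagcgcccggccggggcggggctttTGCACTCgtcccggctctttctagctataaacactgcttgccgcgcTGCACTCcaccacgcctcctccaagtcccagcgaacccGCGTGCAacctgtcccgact
MT1X: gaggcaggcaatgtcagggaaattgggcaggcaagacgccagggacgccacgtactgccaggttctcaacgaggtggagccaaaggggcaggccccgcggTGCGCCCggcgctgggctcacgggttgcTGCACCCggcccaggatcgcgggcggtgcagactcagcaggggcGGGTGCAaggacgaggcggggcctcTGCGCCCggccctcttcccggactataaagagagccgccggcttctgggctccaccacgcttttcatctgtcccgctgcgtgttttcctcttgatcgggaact
SLC30A1: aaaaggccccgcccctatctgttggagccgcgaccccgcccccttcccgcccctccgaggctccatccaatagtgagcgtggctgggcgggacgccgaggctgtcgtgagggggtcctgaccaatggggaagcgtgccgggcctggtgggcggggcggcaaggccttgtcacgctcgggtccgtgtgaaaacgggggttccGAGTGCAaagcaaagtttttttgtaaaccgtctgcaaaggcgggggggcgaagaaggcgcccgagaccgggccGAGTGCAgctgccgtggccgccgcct

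The MT2A window held 8 cores, 5 on the gene's strand and 3 on the other, and none of the printed cores overlapped. Of 35116 promoter windows of 300 bases in the same table, 0.0199% held at least 8. MT1X had 4 cores, a number reached by 0.601% of windows, and SLC30A1 had 2, reached by 8.6%. Of the 2 SLC39A10 windows, one held 1 core and the other 0, and the MTF1 window held 0, against 29.6% of all windows with at least 1. Windows are described here for 5 of the 10 genes. Whether the remaining listed genes had a promoter window is not reported. A match describes the letters in the window and not binding.

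The metallothionein genes are close copies, which bears on how reads are divided between them. The coding sequences of MT2A and MT1E, from GENCODE 29 transcripts on GRCh38, are shown because these genes gave nearly all metallothionein counts. Capitals in MT1E mark bases that differ from MT2A.
MT2A: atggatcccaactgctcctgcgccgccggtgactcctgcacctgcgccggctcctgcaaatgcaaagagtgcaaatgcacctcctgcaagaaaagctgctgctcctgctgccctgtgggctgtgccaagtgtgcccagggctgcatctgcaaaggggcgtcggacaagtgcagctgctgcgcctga
MT1E: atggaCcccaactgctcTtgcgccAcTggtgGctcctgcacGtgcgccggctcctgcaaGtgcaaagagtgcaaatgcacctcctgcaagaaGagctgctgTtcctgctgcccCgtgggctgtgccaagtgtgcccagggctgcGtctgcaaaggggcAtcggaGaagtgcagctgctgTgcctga

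Both run to 186 bases with the stop codon, and 172 of 186 bases (92.5%) were identical. MT1G shared 95.2% of its coding bases with MT2A, MT1X 92.5%, MT1F 91.4% and MT1M 89.8%. All 6 coding sequences held 61 codons before the stop, 20 of them for cysteine, the residue that holds the metal. Each gene has 3 exons, and they lie on chromosome 16, MT2A at 56608199 to 56609497, MT1E at 56625475 to 56627112, MT1M at 56632233 to 56633986, MT1F at 56657694 to 56660698 and MT1X at 56682424 to 56684196 on the plus strand, and MT1G at 56666731 to 56668065 on the minus strand. Shared sequence was counted in 50-base windows of each transcript, trimmed to the RefSeq bounds of its gene. Of these windows, 10.2% in MT2A, 10% in MT1E, 14.6% in MT1M, 6.12% in MT1F, 20.2% in MT1G and 51% in MT1X also occurred in a transcript of another gene. For MT1X the gene sharing most of these windows was the noncoding gene AC026461.1 on the same strand, which also shares its exon sequence. The sources used here do not say how reads that match several genes were counted. Values for single metallothionein genes, MT1X most of all, are therefore uncertain. Adding the 6 genes removes only the division of reads among them. It does not recover reads shared with other genes, such as MT2P1 for MT2A, MT1JP for MT1E and AC026461.1 for MT1X.

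Of the listed genes, 5 were lower and 3 higher after LPS plus nigericin. MT1E, MT1X, MT1F, MT1M and MT2A fell, SLC39A14, MTF1 and SLC39A10 rose, SLC30A1 did not pass the threshold, and MT1G had no counts. Levels are CPM, counts scaled to a common library size with TMM factors (a correction for library composition), and a gene is called at a Benjamini-Hochberg adjusted p under 0.05 from edgeR's quasi-likelihood test over 19170 genes. Of these tested genes 55.3% were called, 28.9% higher and 26.4% lower, so 8 called of 9 tested listed genes is read against a comparison in which most genes moved. The libraries of the groups did not overlap for 8 of the 9, against 67% of all tested genes. The median log2 fold change of the 9 was -0.59, against 0.00 over all tested genes. These are measurements of bulk RNA, in which fewer cells with a transcript and less of it per cell cannot be told apart.

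**Figure D1:**
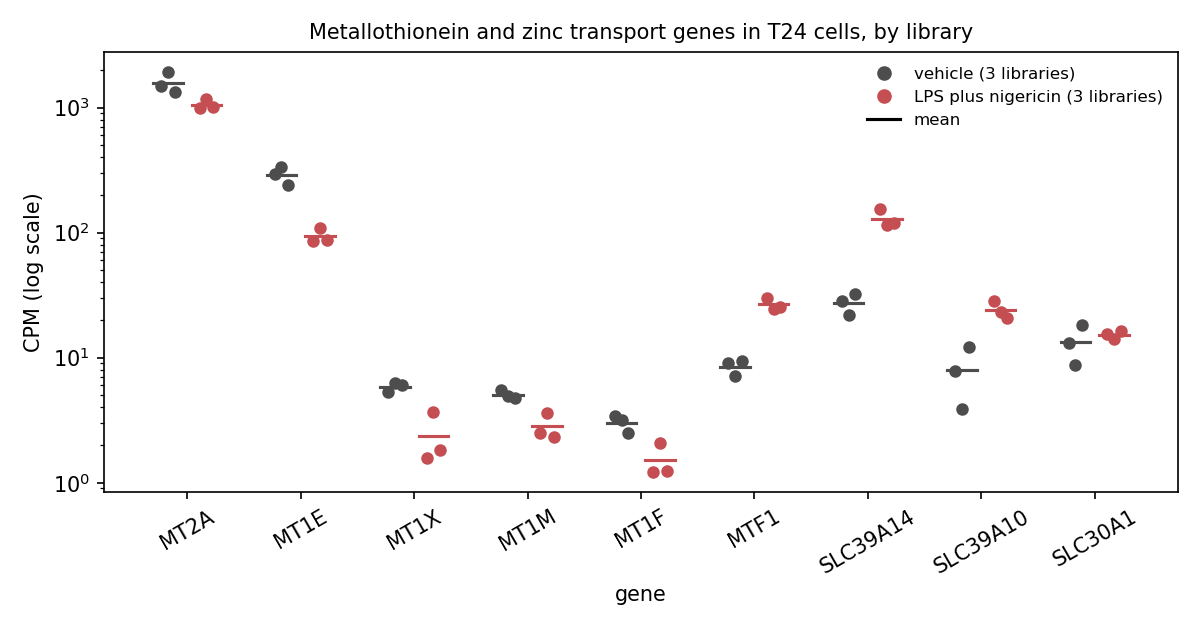
CPM of the 9 listed genes with counts, on a log axis, in each of 3 vehicle libraries (grey) and 3 LPS plus nigericin libraries (red), with the group mean as a line. MT2A and MT1E stand far above the other metallothionein genes, and only SLC30A1 has overlapping groups.

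Across all genes, change followed transcript composition. After treatment, 58% of protein-coding genes in the lowest quintile of GC content were higher and 5.04% lower, against 7.05% and 60.6% in the highest quintile. In the quintile of shortest transcripts 14.2% were higher and 44.5% lower, and in that of the longest 55.3% and 10.7%. The metallothionein transcripts are short, at 398 to 425 bases within the RefSeq bounds of their genes, whereas those of MTF1, SLC30A1, SLC39A10 and SLC39A14 have 4612 to 7937 bases. For this reason the fold changes of the listed genes, and of other genes where stated, are also given from a fit with per-library offsets for GC content and length, which would take out a treatment effect too if it ran along these properties. The offsets were computed once from the annotated transcripts and once from transcripts trimmed to the RefSeq bounds, the latter chosen after seeing that the annotated MT2A transcript has 786 bases against 401 when trimmed. Neither fit shows whether the trend is technical.

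Most metallothionein RNA came from MT2A, an isoform made in most human tissues. Its level was 1490, 1940 and 1320 CPM in the vehicle libraries and 985, 1160 and 1010 CPM in the treated libraries. Every treated library was below every vehicle library, but the vehicle libraries differed among themselves by more than the treated ones. The mean went from 1580 ± 324 to 1050 ± 94.4 CPM (SD, n = 3), which is -0.59 ± 0.163 (SE) as log2 fold change (edgeR adjusted p = 0.0156). This call was lost without treated library 1 or 3 (edgeR adjusted p = 0.0648 and 0.0643; 0.00353 to 0.0379 without any other library). With the offsets for GC content and length the direction turned, to 0.38 with annotated transcripts (edgeR adjusted p = 0.00298) and 0.11 with trimmed ones (edgeR adjusted p = 0.149). Of the 689 protein-coding genes in the same quintiles of GC content and length as MT2A, 55.2% were lower and 8.71% higher.

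MT1E, the main MT1 isoform in these cells, fell more. Its libraries were at 295, 337 and 242 CPM after vehicle and at 85, 109 and 87.8 CPM after treatment. The groups were far apart, with the highest treated library below the lowest vehicle library. The mean fell from 291 ± 47.7 to 94 ± 13.3 CPM (SD, n = 3), 3.1-fold lower, or -1.63 ± 0.161 (SE) in log2 (edgeR adjusted p = 1.92e-04). The fall was smaller with the offsets, at -0.79 with annotated and -1.19 with trimmed transcripts, and passed the threshold in both (edgeR adjusted p = 4.98e-05 and 1.17e-05). Of the 596 genes in its quintiles of GC content and length, 35.2% were lower and 12.9% higher.

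MT1X, MT1M and MT1F, MT1 isoforms of the same cluster, were present at a far lower level. MT1X had 5.27, 6.27 and 6.04 CPM in vehicle and 1.57, 3.69 and 1.83 CPM in treated libraries. Treated library 2 was thus nearer to the vehicle libraries than the other treated libraries were. In log2 the change was -1.31 ± 0.328 (SE; edgeR adjusted p = 0.0105), and it was -0.88 and -0.92 with the 2 sets of offsets (edgeR adjusted p = 0.0271 and 0.0224).

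MT1M had 5.5, 4.96 and 4.73 CPM in vehicle against 2.51, 3.63 and 2.33 CPM (-0.84 ± 0.224 SE in log2, edgeR adjusted p = 0.0137). MT1F had 3.39, 3.16 and 2.49 CPM against 1.22, 2.07 and 1.23 CPM (-0.996 ± 0.281 SE in log2, edgeR adjusted p = 0.0174). In both genes the groups did not overlap and treated library 2 was the highest of its group. Both calls were lost without vehicle library 1, treated library 1 or treated library 3 (edgeR adjusted p = 0.0643, 0.0682 and 0.0674 for MT1F and 0.055, 0.0564 and 0.057 for MT1M). Neither passed with the offsets, at 0.06 and -0.34 for MT1M (edgeR adjusted p = 0.837 and 0.179) and -0.17 and -0.45 for MT1F (edgeR adjusted p = 0.584 and 0.143). MT1G had 0 counts in every library, which allows a level of up to 3 counts, or 0.0329 to 0.0453 CPM per library. That limit covers counting error only and not reads that the counting may have left out.

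Because reads can be divided between paralogs in different ways, the counts of the 6 metallothionein genes were also added and tested as 1 row. The sum was at 1800, 2300 and 1570 CPM in vehicle and 1080, 1280 and 1100 CPM in treated libraries, or 0.174% to 0.214% and 0.107% to 0.123% of all counts. All treated libraries lay below all vehicle libraries. The summed level fell from 1890 ± 371 to 1150 ± 110 CPM (SD, n = 3), a log2 fold change of -0.71 (SE 0.161, 95% interval -1.08 to -0.34, edgeR adjusted p = 0.00662). With offsets taken at the count-weighted GC content and length of the 6 transcripts, it was at 0.24 (edgeR adjusted p = 0.0216) with annotated transcripts and at -0.06 (edgeR adjusted p = 0.406) with trimmed ones. The direction of the family as a whole therefore depends on this correction, as it does for MT2A, while MT1E and MT1X were lower in all 3 fits.

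**Figure D2:**
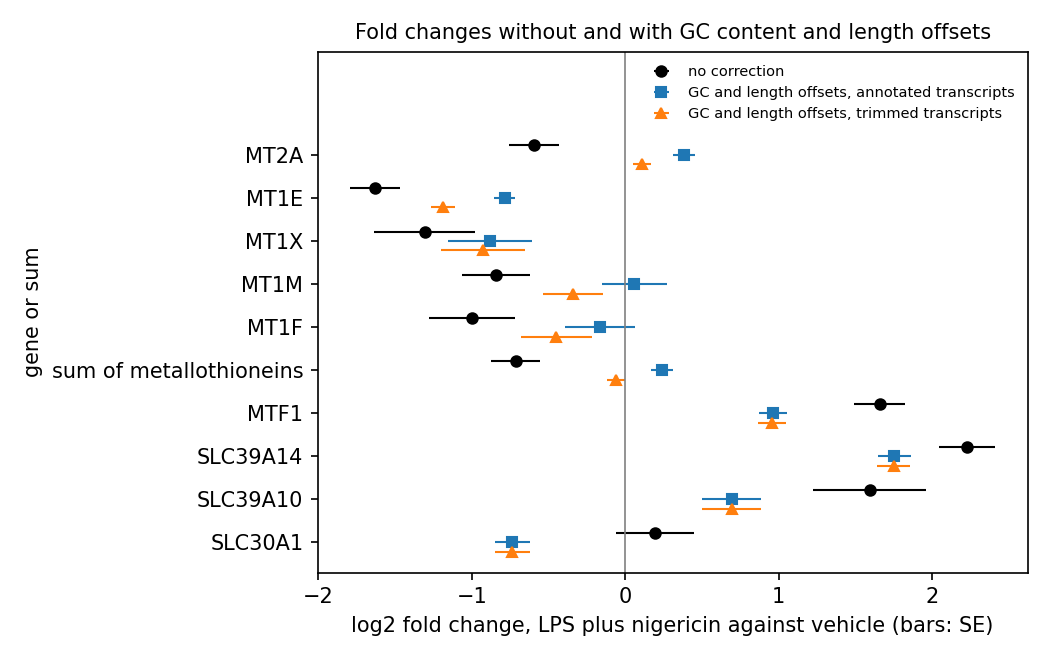
Log2 fold change of LPS plus nigericin against vehicle, with SE bars, for each listed gene with counts and for the metallothionein sum, without correction (black) and with GC content and length offsets from annotated (blue) or trimmed (orange) transcripts. MT2A and the sum move from below 0 to near or above 0, SLC30A1 moves from 0.20 to -0.73, and MT1E, MT1X, MTF1, SLC39A14 and SLC39A10 keep their side.

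Compared per length, MT2A was the most abundant of the 10 genes in both groups, at 3950 ± 809 CPM per kb in vehicle and 2620 ± 235 after treatment (SD, n = 3). MT1E followed at 732 ± 120 and 236 ± 33.4 CPM per kb. In vehicle the next levels were those of MT1X and MT1M, at 14.5 ± 1.3 and 12.7 ± 0.995 CPM per kb, whose libraries overlapped, and then MT1F at 7.09 ± 1.1 and SLC39A14 at 5.97 ± 1.14, which overlapped as well. SLC30A1 (2.44 ± 0.875), SLC39A10 (1.47 ± 0.764) and MTF1 (1.07 ± 0.152) were lowest in vehicle, and each overlapped the next in its libraries. After treatment SLC39A14 came next after MT1E, at 28 ± 4.42 CPM per kb. It was followed by MT1M (7.1 ± 1.77), MT1X (5.86 ± 2.86), SLC39A10 (4.44 ± 0.732), MT1F (3.55 ± 1.15) and MTF1 (3.37 ± 0.369), each overlapping the next in its libraries, and by SLC30A1 (2.79 ± 0.225), whose libraries all lay below those of MTF1.

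MT2A held a larger share of the metallothionein RNA, and MT1E a smaller one, in every treated library than in any vehicle library. MT2A made up 82.7%, 84.6% and 83.7% of the summed counts per kb in vehicle and 91.6%, 90.7% and 91.5% after treatment. MT1E made up 16.5%, 14.8% and 15.5%, and then 7.96%, 8.61% and 8.01%. The log2 ratio of MT1E to MT2A per kb went from -2.43 ± 0.0957 to -3.48 ± 0.0708 (SD, n = 3), a difference of -1.05. The two-sided exact permutation p was 0.1 for the ratio and for each of these shares (0.2 adjusted over 6 such measures), the smallest p that 3 against 3 libraries allow. MT1X, MT1M and MT1F each stayed under 0.4% in every library, with overlapping shares. The ratio and shares compare transcripts of like length, 398 and 401 bases, whose GC contents were 50% and 55.6%.

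**Figure D3:**
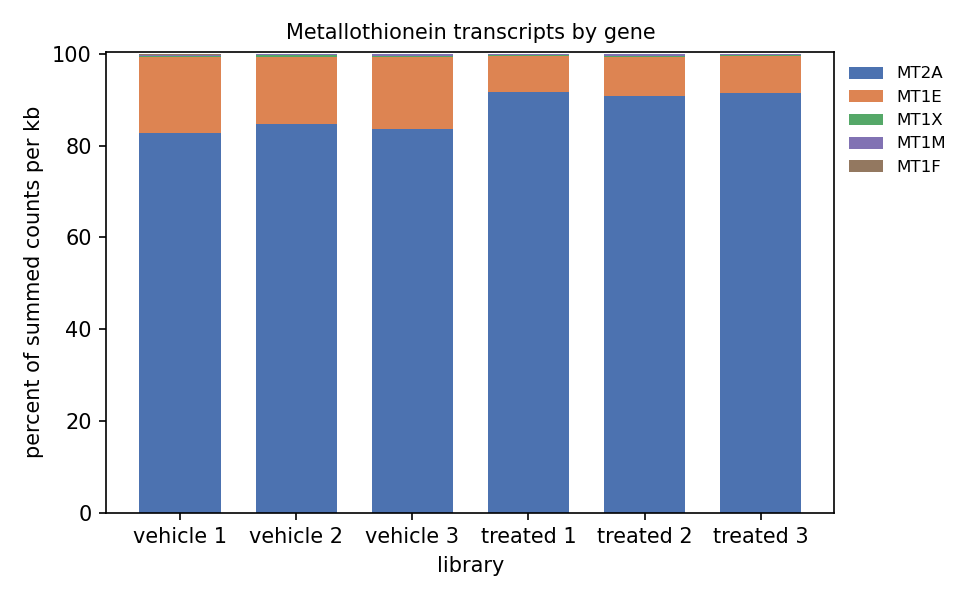
Share of each metallothionein gene in the summed metallothionein counts per kb, as stacked bars from 0 for each library (treated: LPS plus nigericin). MT2A holds 82.7% to 84.6% in vehicle and 90.7% to 91.6% after treatment, MT1E holds nearly all the rest, and MT1X, MT1M and MT1F are thin bands at the top.

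MTF1, the factor that reads zinc and drives metallothionein promoters, rose while the metallothionein genes with counts fell in the fit without offsets. Its libraries were at 8.99, 7.09 and 9.32 CPM in vehicle and 30.1, 24.7 and 25.5 CPM after treatment. The lowest treated library was above every vehicle library. The mean rose from 8.47 ± 1.2 to 26.8 ± 2.93 CPM (SD, n = 3), 3.16-fold (1.66 ± 0.164 SE in log2, edgeR adjusted p = 1.91e-04). With the offsets the rise was 0.97 and 0.96 on the log2 scale (edgeR adjusted p = 8.05e-05 in both). In those fits MT1E and MT1X stayed lower, and MT1M and MT1F did not pass. MT2A was at 0.38 and 0.11 there, and the metallothionein sum at 0.24 and -0.06. MTF1 lies on chromosome 1 (minus strand, 37809567 to 37859620) with 11 exons. Of the 600 genes in its quintiles of GC content and length, 52.7% were higher.

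SLC39A14 had the largest change of the 10 genes. This importer was at 28.4, 21.9 and 32.3 CPM in vehicle libraries and at 153, 116 and 119 CPM in treated libraries. No treated library came near the vehicle range. The mean rose from 27.5 ± 5.26 to 129 ± 20.4 CPM (SD, n = 3), 4.69-fold (2.23 ± 0.183 SE in log2, edgeR adjusted p = 9.71e-05). It was 1.76 and 1.75 with the offsets (edgeR adjusted p = 9.91e-06 and 9.57e-06), and 42% of the 509 genes in its quintiles of GC content and length were higher. SLC39A14 lies on chromosome 8 (plus strand, 22367249 to 22434129) with 9 exons. Gene counts do not separate its alternative transcripts.

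SLC39A10, an importer of the cell surface, was at 7.84, 3.89 and 12.2 CPM in vehicle and at 28.5, 23.1 and 20.7 CPM after treatment. The vehicle libraries spread widely, yet all were below the treated ones. The mean rose 3.02-fold, from 7.98 ± 4.15 to 24.1 ± 3.97 CPM (SD, n = 3), or 1.59 ± 0.367 (SE) in log2 (edgeR adjusted p = 0.00729). With the offsets it was 0.70 and 0.69 (edgeR adjusted p = 0.0169 and 0.0178). Of the 943 genes in its quintiles of GC content and length, 70.6% were higher and 2.55% lower. SLC39A10 lies on chromosome 2 (plus strand, 195575977 to 195737702) with 10 exons.

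SLC30A1, the exporter that MTF1 is known to induce, did not pass the threshold. Its libraries were at 13.1, 8.68 and 18.3 CPM in vehicle and 15.5, 14 and 16.4 CPM after treatment. All treated values fell inside the vehicle range. The log2 fold change was 0.20 (SE 0.253, 95% interval -0.39 to 0.78, edgeR adjusted p = 0.54), an interval that does not show the levels to be equal. With either set of offsets SLC30A1 was at -0.73 and passed as lower (edgeR adjusted p = 9.28e-04 and 9.5e-04). It is one of 943 long, GC-poor genes of which 70.6% were higher and 2.55% lower. The same quintiles hold SLC39A10. SLC30A1 lies on chromosome 1 (minus strand, 211571568 to 211578742) with 2 exons.

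Vehicle library 2 stood apart in these genes. Of the 3 vehicle libraries it had the highest MT2A and MT1E and the lowest MTF1, SLC30A1, SLC39A10 and SLC39A14. Without it the log2 fold changes were -0.42 for MT2A, -1.52 for MT1E, 1.54 for MTF1, 1.26 for SLC39A10 and 2.09 for SLC39A14, all on the same side of the threshold, and -0.04 for SLC30A1.

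The other zinc exporters were mostly intracellular transporters, and those that passed were higher. Of 9 further SLC30 names, 8 were in the table, 3 fell below the count filter and 5 were tested. SLC30A9, a mitochondrial zinc transporter, rose by 1.38 (log2), from 17.3, 12.1 and 22.9 CPM to 48, 44.5 and 43.8 CPM. SLC30A7 and SLC30A5, exporters into the secretory pathway, rose by 0.94 and 0.79, while SLC30A4 and SLC30A6 were at 0.20 and 0.39 and not called. The median of the 5 was 0.79, and of all tested genes 28.9% were called higher and 26.4% lower. With the offsets from annotated transcripts SLC30A9 was at 0.44 (edgeR adjusted p = 0.00356), and SLC30A7 and SLC30A5 were at -0.14 and -0.02 and did not pass.

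Importers went both ways, as did all tested genes, of which 28.9% were called higher and 26.4% lower. Of 12 further SLC39 genes, 11 were tested, of which 3 were higher, 3 lower and 5 not called (median log2 fold change 0.19). SLC39A9 rose from 35.6, 25.7 and 34.8 CPM to 106, 104 and 93.9 CPM (a log2 rise of 1.66, edgeR adjusted p = 1.44e-04). SLC39A6, which encodes ZIP6, rose from 16.1, 13.9 and 20.7 CPM to 55.9, 48.3 and 50.9 CPM (1.61, edgeR adjusted p = 2.49e-04). Both rises were smaller with the offsets from annotated transcripts, at 1.06 and 0.90, and passed there as well.

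SLC39A8, the importer closest to ZIP14, rose by 0.63 and was at 0.05 with those offsets. SLC39A3 fell from 76.9, 100 and 59.4 CPM to 23.6, 38.1 and 32 CPM (-1.34, edgeR adjusted p = 0.00218) and was at -0.33 with the offsets (edgeR adjusted p = 0.0201). SLC39A4, the importer mutated in the zinc deficiency disorder acrodermatitis enteropathica, fell by 0.84 on the log2 scale, and SLC39A13, a Golgi and vesicle transporter, by 0.58. With the offsets these 2 were at 0.13 (edgeR adjusted p = 0.301) and 0.20 (edgeR adjusted p = 0.0291). The other abundant importers, SLC39A1 at 211 ± 28.1 and 185 ± 18 CPM and SLC39A7 at 151 ± 10.4 and 172 ± 6.42 CPM (SD, n = 3), did not pass (edgeR adjusted p = 0.262 and 0.154). SLC39A11 at 0.32, SLC39A2 at 0.73 and SLC39A5 at 0.12 (log2) were not called either, the last 2 with at most 21 counts in any library.

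**Figure D4:**
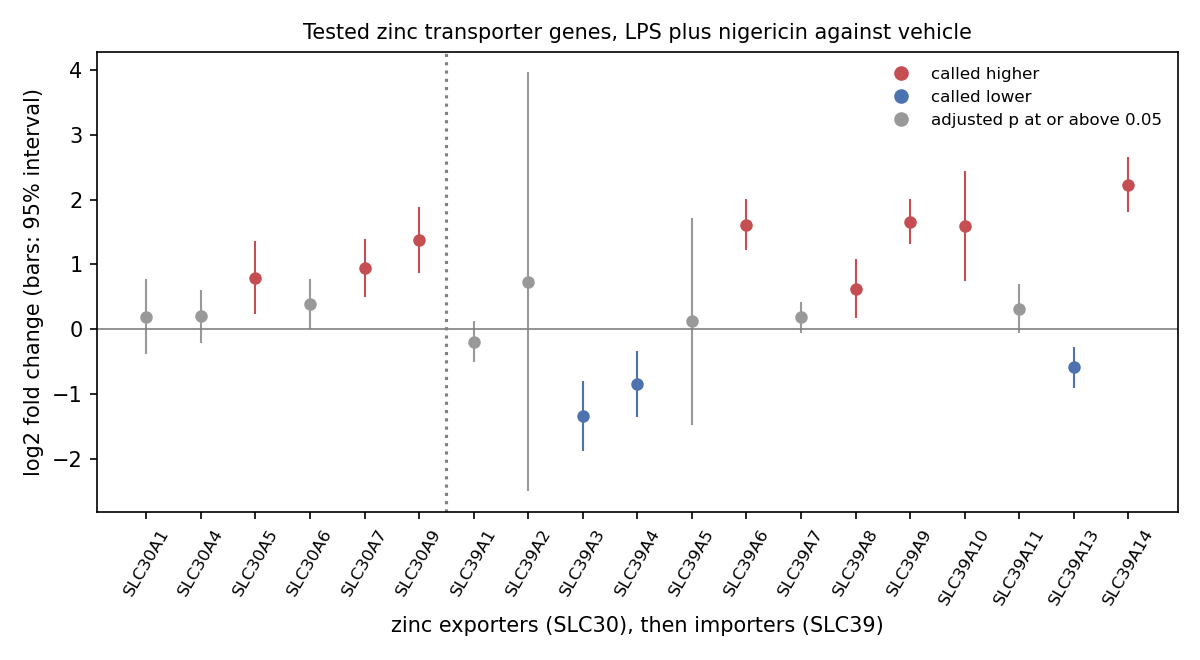
Log2 fold change with 95% interval for the 6 tested SLC30 and 13 tested SLC39 genes, before any GC content or length offset. SLC39A14 is highest at 2.23, SLC39A3 lowest at -1.34, and the wide intervals belong to SLC39A2 and SLC39A5, which had few counts.

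Among 7 genes of zinc sensing and delivery, 4 were higher, 1 lower and 2 not called. Over all tested genes 28.9% were higher and 26.4% lower. GPR39, a zinc-sensing receptor of the cell surface, fell 4.67-fold from 12, 11.4 and 11 CPM to 2.42, 2.21 and 2.73 CPM (-2.22 ± 0.168 SE in log2, edgeR adjusted p = 7.44e-05), and by 1.85 (log2) with the offsets. ZNG1A, ZNG1B and ZNG1C, near-identical copies of a zinc chaperone gene whose reads may not be told apart, rose by 0.72, 0.70 and 0.85 on the log2 scale. With the offsets from annotated and trimmed transcripts ZNG1A was at 0.32 and 0.30 (edgeR adjusted p = 0.0613 and 0.0637) and ZNG1C at 0.33 and 0.37 (edgeR adjusted p = 0.0805 and 0.0752), so that both calls were lost. Their client METAP1, a methionine aminopeptidase, rose by 1.16, and by 0.65 with the offsets from annotated transcripts (edgeR adjusted p = 0.0118). ZNF658, a zinc-responsive transcription factor, and TMEM163, a zinc efflux protein, were at -0.23 and 0.09.

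Metallothioneins also bind copper, and of 13 copper-handling genes 4 were higher, 4 lower and 5 not called (median log2 fold change 0.07). The shares over all tested genes were 28.9% higher and 26.4% lower. SCO2, a mitochondrial copper chaperone, fell from 8.21, 9.55 and 6.32 CPM to 0.514, 0.851 and 1.0 CPM (-3.34, SE 0.302, edgeR adjusted p = 1.39e-04). ATOX1, the cytosolic copper chaperone, fell by 1.13, STEAP3, a metalloreductase, by 0.79 and CCS, the chaperone of superoxide dismutase, by 0.69 on the log2 scale. CP, the copper-carrying ferroxidase ceruloplasmin, rose from 0.0657, 0.131 and 0.0658 CPM to 1.16, 0.659 and 1.32 CPM (3.58, SE 0.493). The copper transporter genes SLC31A2, ATP7A and SLC31A1 rose by 1.75, 0.77 and 0.52. ATP7B, SOD1, COX17, SCO1 and COMMD1 were at 0.79, 0.17, 0.07, -0.29 and -0.19 and not called. With the offsets from annotated transcripts SCO2 was at -2.35, STEAP3 at -0.52, CP at 2.61 and SLC31A2 at 1.68, all past the threshold, ATOX1 was at -0.22 and did not pass (it did at -0.39 with trimmed transcripts), and ATP7A was at -0.23 and did not pass.

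Of 6 other factors known to act on metallothionein promoters, 3 were higher, 2 lower and 1 not called. Among all tested genes 28.9% were higher and 26.4% lower. NFE2L2, the NRF2 factor of the oxidative stress response, rose from 30.1, 16.7 and 35.3 CPM to 94.4, 88.8 and 98.9 CPM (a log2 rise of 1.78, edgeR adjusted p = 8.34e-04), and was at 1.38 with the offsets from annotated transcripts (edgeR adjusted p = 2.9e-04). NR3C1, the glucocorticoid receptor, rose by 1.15 and STAT3 by 0.48, and with the offsets from annotated transcripts these were at 0.14 and 0.17 and did not pass. USF1, an E-box factor, fell from 73.9, 92 and 60 CPM to 31.9, 33.8 and 36.1 CPM (-1.15, edgeR adjusted p = 9.37e-04), or by 0.74 with the offsets. USF2 fell by 0.68, and with the offsets from annotated transcripts it was at 0.19 and passed as higher (edgeR adjusted p = 0.0301). SP1, which binds GC boxes, was at -0.34 (edgeR adjusted p = 0.0962).

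SLC30A5, SLC39A8, ZNG1A and ATP7A each lost the call on leaving out vehicle library 1, and likewise on leaving out any treated library (edgeR adjusted p = 0.0533 to 0.101 over these). Of 11 other metallothionein genes and pseudogenes, 3 had a row and 0 could be tested: MT1JP had no counts, MT1L had at most 10 and MT1DP at most 22 in any library, and the rest were not analysed here. Several genes named above share exon sequence with a neighbour in GENCODE 29, among them SLC39A9 with ERH, GPR39 with LYPD1, ATOX1 with G3BP1, SLC31A2 with FKBP15, SLC39A1 with CREB3L4, SLC39A7 with RXRB, CP with HPS3, ATP7A with PGK1 and SCO2 with TYMP. Without a stated strand setting, reads of a neighbour on the opposite strand may be among their counts. ATP7A and PGK1, and SCO2 and TYMP, lie on the same strand, where no strand setting would separate their reads. SCO2 also shares exon sequence with another annotated entry of the same name on the same strand. The values given for SCO2 may therefore hold only part of its reads.

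The label of the line as epithelial was checked with 7 markers, whose summed level was 6540 to 9540 CPM in vehicle and 3510 to 4510 CPM after treatment. KRT7, KRT8, KRT18 and KRT19 were abundant, while CDH1 and KRT5 had counts in 1 library only. EPCAM was at 2.31, 1.13 and 2.34 CPM in vehicle and 2.25, 3.34 and 3.08 CPM after treatment, and was not called. The 7 urothelial markers summed to 107 to 111 CPM in vehicle and 55.7 to 61.1 CPM after treatment, and PPARG (-1.04 in log2, edgeR adjusted p = 2.58e-04) and GATA3 (-0.71, edgeR adjusted p = 0.00646) fell. Of the uroplakin genes UPK1B had 0 counts, UPK3A at most 4, UPK1A at most 14 and UPK2 at most 57 in any library. The 6 mesenchymal or fibroblast markers summed to 87.9 to 103 CPM in vehicle and 74.4 to 83.4 CPM after treatment, most of it VIM. The 5 leukocyte markers in the table summed to 2.9 to 4.58 CPM in vehicle and 3.23 to 5.07 CPM after treatment, with PTPRC at 0 in every library but 1. Most of that sum was CD14, and LYZ was called higher, from 0.0438, 0.157 and 0 CPM to 0.801, 0.587 and 0.631 CPM (3.34 ± 0.931 SE in log2, edgeR adjusted p = 0.0164). The 4 endothelial markers summed to under 1 CPM. The keratin, PPARG, GATA3 and LYZ levels moved with the treatment, as did the metallothionein sum, all without offsets for GC content and length. With the offsets the sum was at 0.24 and -0.06, and marker values with offsets are not given here. The part of the markers in these results was not tested.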

How the data were processed

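The authors deposited raw counts per Ensembl gene, 1 column per library, per the file headers, on hg38 per the submitters' processing notes. Aligner, counter, annotation and strand setting remain not given in the sources used here. RNA extraction and library work are credited to more than 1 company in the labels. Columns were matched to samples by library name, and 0 columns belonged to no sample.

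Genes were filtered with filterByExpr, normalized with TMM and tested with edgeR 4.0.16 in R 4.3.3 (robust quasi-likelihood, group as the only term, Benjamini-Hochberg at 0.05), which left 19170 of 37871 genes. SE is the absolute log2 fold change over the square root of F. Lengths and GC content are those of the principal GENCODE 29 transcript. It was trimmed to RefSeq gene bounds where stated, for the GC and length quintiles and for CPM per kb. GC and length offsets are loess fits (span 0.3) of each library's log2 CPM deviations over 13976 coding genes. Other alternatives were RLE, library totals, DESeq2 1.42.0, limma-voom 3.58.1, no filter, a filter of 1 CPM in 3 libraries, a replicate block and leaving out each library. The test was checked on simulated data.

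The genes, lists and offsets were chosen with earlier results of these data known. All 10 listed genes are named, and from each pathway list up to 3 called rises and 3 called falls with a group mean of at least 1 CPM. Members of a count of 5 or fewer are named too, and the single markers were named after their values were seen. With library totals of 66180407 to 89152224, counting error is small beside replicate spread for genes with many counts. That does not extend to genes with few counts, such as CP (6, 10 and 6 in vehicle) and LYZ (4, 12 and 0 in vehicle). Replicate pairs differed by 24.1 to 207 in chi-square per degree of freedom, and all were kept as separate replicates.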

Additional observations from a re-analysis of the deposited data

How the results depend on the processing

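The 8 calls among the listed genes held with RLE factors, library totals, DESeq2, limma-voom, no count filter, 1 CPM in 3 libraries and the replicate block. With the block 10408 genes were called against 10610, and the metallothionein sum was at -0.70. Deviations of same-numbered libraries correlated at -0.02, 0.25 and -0.08, so the numbers were not taken to pair the samples. Leaving out 1 library gave 5 to 8 calls among the listed genes. There were 5 without treated library 1 or 3, 6 without vehicle library 1 and 8 without any other library. Each of these fits held 1 library fewer than the main fit. With GC and length offsets 7 (annotated) and 6 (trimmed) were called, SLC30A1 among them, now lower, and the metallothionein sum was at 0.24 and -0.06. Direction turned for MT2A (0.38 and 0.11), SLC30A1 (-0.73 in both), SLC30A7 (-0.14 and -0.13), SLC30A5 (-0.019 and -0.021), SLC39A4 (0.13 in both), SLC39A13 (0.20 in both), ATP7A (-0.23 and -0.22) and USF2 (0.19 in both), and for MT1M with annotated transcripts (0.061). The cause was not tested beyond the offsets themselves. With library totals SLC30A5, SLC39A8, ZNG1A and ATP7A lost their calls (edgeR adjusted p = 0.079 to 0.0914), as did ATP7A with no count filter (0.0526), and 46.2% of called genes were higher against 52.2%. The sum over every metallothionein row was at -0.71, and the MT2A share rose by 7.1 to 8.04 percentage points without any 1 library.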
